A study of Macaca mulatta with 102 samples.

Results

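Mitochondrial ribosomal proteins are the nuclear-encoded proteins of the ribosome that works inside mitochondria. Their genes were taken as those with a single platform symbol that starts with MRPL or MRPS followed by a digit. The rule found 62 genes of the 14132 that have a single-gene probe set: 40 MRPL genes, named for the large subunit, and 22 MRPS genes, named for the small subunit. Each gene was read from the probe set with the highest mean over all arrays. RNA of CD3-positive T cells, sorted by flow cytometry from the blood of rhesus macaques (Macaca mulatta), was measured on Affymetrix arrays. The table holds 102 arrays of 66 animals in 16 groups, measured in 6 labelled batches. Values are log2 signal after RMA, a method that corrects the background, normalizes the arrays to each other and sums the probes of a probe set.

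Healthy animals (Healthy.Control), some of which were sampled again after transplant, gave 46 arrays of 45 animals. The remaining 56 arrays followed a hematopoietic cell transplant, with the day counted from it. Recipients of donor cells without prophylaxis against graft-versus-host disease formed NoRx.F (n = 4, days 6, 7, 8 and 12). Recipients given sirolimus, an inhibitor of the kinase mTOR, formed Siro.F (n = 4, days 12, 12, 22 and 24). Tacrolimus, a calcineurin inhibitor, with methotrexate gave Tac.Mtx.D14 (n = 3, day 14) and Tac.Mtx.F (n = 3, days 26, 49 and 67). Sirolimus combined with belatacept, which blocks costimulation through CD28, defined Bela.Siro.D14 (n = 3), Bela.Siro.D30 (n = 2) and Bela.Siro.F (n = 7, days 26 to 105). The OX40 ligand antibody KY1005 given by itself formed KY1005.D14 (n = 2, days 14 and 16) and KY1005.F (n = 3, days 16, 16 and 23). Its combination with sirolimus was sampled in 5 animals at day 14 (KY1005.Siro.D14), in 5 at day 28 (KY1005.Siro.D28) and in 4 between days 97 and 106 (KY1005.Siro.F). Recipients of their own cells formed Auto.D14 (n = 3, day 14), Auto.D36 (n = 4, days 30 and 36) and Auto.D100 (n = 4, day 100). Regimens are named as known of the study, since the labels abbreviate them. The ending F is kept as labelled, and days differ between the F groups. Ages and doses are not given in the labels.

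The mitochondrial ribosome translates the few messages of the mitochondrial genome, all of which encode subunits of the respiratory chain and the ATP synthase. Its RNAs come from mitochondrial DNA, whereas all its proteins are made in the cytosol and imported. T cells that leave rest and divide build more mitochondria, and drugs that block the mitochondrial ribosome limit their proliferation.

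Of the 62 genes 61 passed the filter, which asked for 3 or more arrays at or above 5.21, the median value of the table. MRPS6 did not: its value reached that level in 0 of 101 arrays. MRPL49 reached it in 79 arrays and the other 60 genes in all 101. A single probe set represents 38 genes, and 24 have several, so that 97 probe sets carry a member's name. MRPL3 and MRPS36, looked for by role, have no single-gene probe set here. In healthy animals the SD of a member had a median of 0.22 over the 61 genes, against 0.23 over the 10694 genes that passed the filter. It was smallest for MRPL16, at 0.13, and largest for MRPL49, at 0.56.

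Every difference below is a difference of log2 values from limma with the batch as a factor, fitted on all groups together, and is given with its standard error. A gene is said to have risen or fallen where its p-value, adjusted over the 31711 probe sets tested, was under 0.05. The 15 comparisons with healthy animals share the same 45 healthy arrays. Arrays of a group come from different animals, some of which recur in other groups. The p-values rest on a spread between arrays that is pooled over all groups, to which the 45 healthy arrays contribute most. Groups differed in spread: the SD of the mean over the 61 genes was 0.09 in healthy arrays, 0.27 in NoRx.F, 0.21 in Siro.F and 0.04 in KY1005.D14. The pooled spread may be too small for groups that vary more, such as NoRx.F and Siro.F. In sorted but unfractionated T cells, fewer cells of a kind and less RNA per cell cannot be told apart. CD3 genes have no single-gene probe set here. The 4 T cell genes that do (CD5, CD6, TRAT1 and ZAP70) had a mean between 10.25 and 10.93 in healthy arrays and between 9.85 and 10.26 in NoRx.F. There TRAT1 fell by 1.47 ± 0.21 and CD5 by 0.48 ± 0.16, and CD6 and ZAP70 were not called. The log2 ratio of the 3' to the 5' actin probe sets, a measure of RNA quality on these arrays, exceeded 2.5 in 6 arrays: 4 of healthy animals and those of R.201 and R.202 in Auto.D14.

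The mean over the 61 genes was between 8.66 and 9.04 in the healthy arrays, with a median of 8.87. In NoRx.F it was 9.19 in R.51, 9.23 in R.53, 9.61 in R.52 and 9.73 in R.50. All 4 values lay above the highest healthy array. In Tac.Mtx.F it was 9.02, 9.19 and 9.30, and in Siro.F it ran from 8.80 to 9.26. In KY1005.Siro.D28, KY1005.Siro.F and Auto.D100 no array exceeded the highest healthy array.

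**Figure D1:**
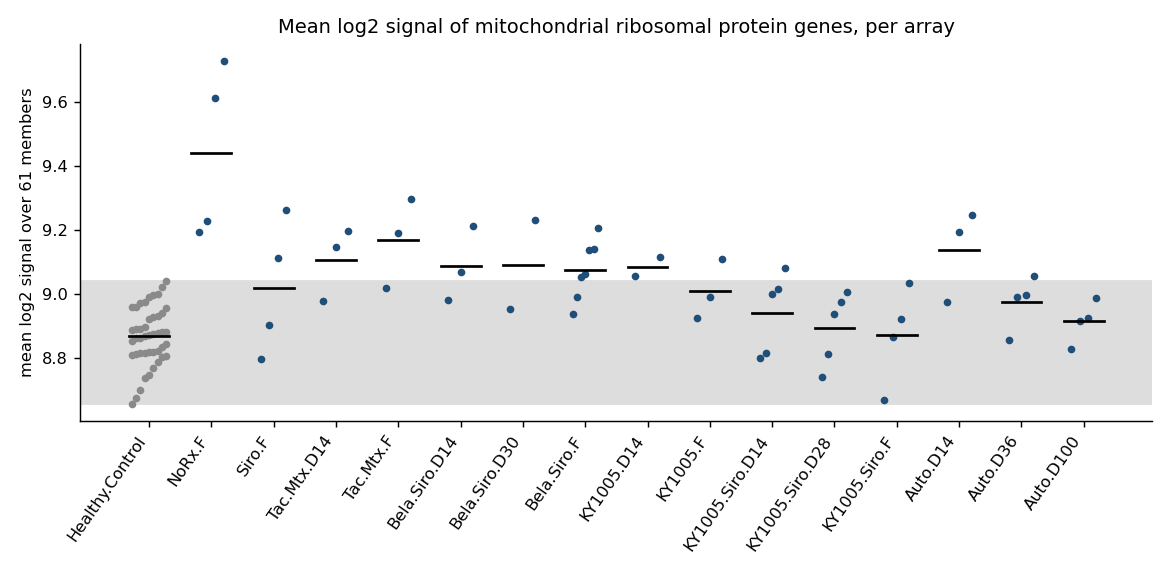
Mean log2 signal over the 61 mitochondrial ribosomal protein genes (y axis) in each array, by group (x axis). Points are arrays, black lines group means, and the grey band the range of the healthy arrays, 8.66 to 9.04. The 4 NoRx.F arrays sit between 9.19 and 9.73, above the band.

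In T cells of recipients without prophylaxis, 44 of the 61 genes rose and 0 fell against healthy animals. Over all probe sets 13.5% rose in that comparison. Over the 10694 genes tested, each read from 1 probe set as the members were, 19% rose. The median difference of the 61 genes was 0.53, beside 0.01 over all probe sets and 0.05 over all genes, and 57 differences were positive. Among MRPL genes 30 of 40 rose, with a median of 0.55, and among MRPS genes 14 of 21, with a median of 0.47. A total of 6 genes rose at least 2-fold, as did 2.47% of all probe sets.

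MRPL42, a large subunit protein once also catalogued in the small subunit, had the largest difference. Its value was 8.73 in R.51, 8.83 in R.53, 9.05 in R.52 and 9.31 in R.50. In healthy arrays it ran from 6.35 over a median of 7.37 to 8.25. The groups did not overlap, and the difference was 1.57 ± 0.25 (2.96-fold, limma adjusted p = 6.23e-07).

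MRPL12 forms the flexible stalk of the large subunit that recruits translation factors, and it also binds the mitochondrial RNA polymerase. It stood at 9.41 in R.53, 9.52 in R.51, 9.69 in R.52 and 9.91 in R.50. Healthy arrays ran from 7.75 over a median of 8.27 to 8.59. Every NoRx.F array lay above every healthy array. The difference was 1.40 ± 0.12 (2.65-fold, limma adjusted p = 7.98e-16). R.53 was also measured while healthy, in the same batch: MRPL12 went from 8.20 to 9.41 in that animal, and 52 of its 61 genes were higher after transplant.

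MRPS14, a protein of the head of the small subunit, was 9.63 in R.53, 9.81 in R.51, 10.20 in R.52 and 10.42 in R.50. The healthy range was 7.82 to 9.14 with a median of 8.63. The groups did not overlap, and the difference was 1.39 ± 0.18 (2.62-fold, limma adjusted p = 7.39e-10). MRPS28 was 9.30, 9.78, 9.34 and 9.99 in R.53, R.50, R.51 and R.52, against 8.11 to 9.20 in healthy arrays. All 4 NoRx.F arrays lay above the highest healthy array, and the difference was 1.04 ± 0.15.

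MRPS12, which lines the decoding centre and bears on the accuracy of translation, was 10.19 in R.53, 11.01 in R.50, 10.33 in R.51 and 10.83 in R.52, and at most 9.91 in healthy arrays. Its difference was 0.97 ± 0.11 (1.96-fold). MRPL41 (0.96 ± 0.13), MRPS18C (1.05 ± 0.17) and MRPL52 (1.07 ± 0.16) complete the largest rises. MRPL52 alone among these 8 overlapped with the healthy group: R.53, at 8.70, lay under the healthy maximum of 8.75. In all, 13 of the 44 risen genes had groups that did not overlap, beside 2.89% of all probe sets that both rose and did not overlap.

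**Figure D2:**
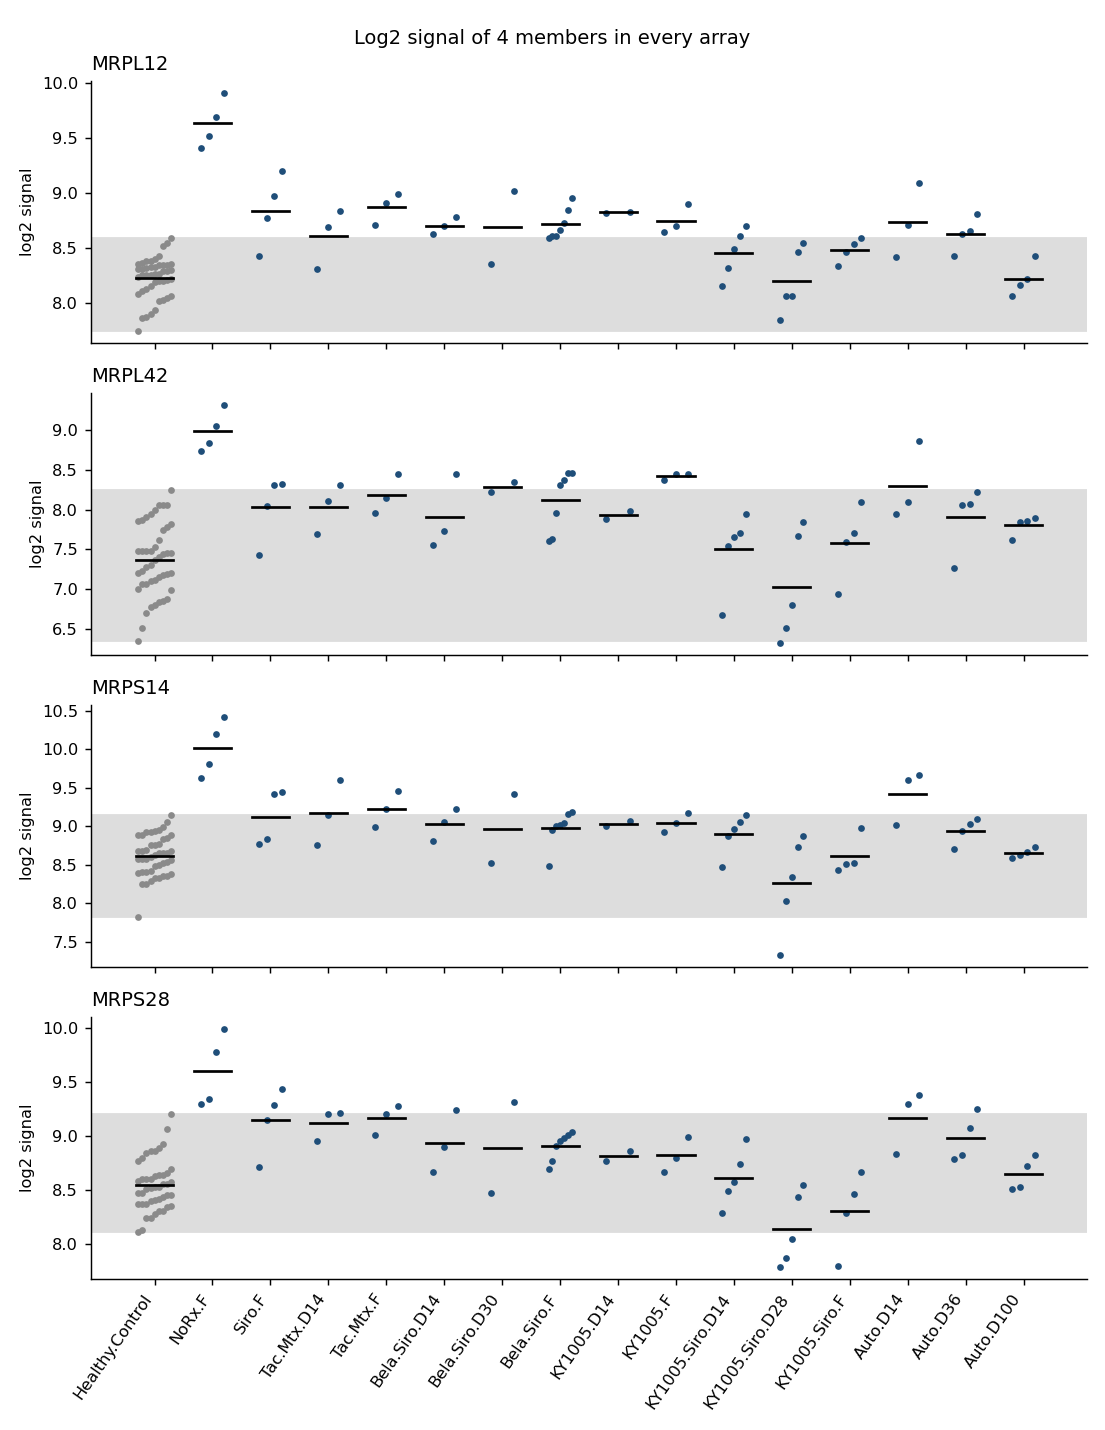
Log2 signal (y axis) of MRPL12, MRPL42, MRPS14 and MRPS28 in every array, by group (x axis). Points are arrays, black lines group means, and grey bands the healthy range. All 4 genes lie above the band in all 4 NoRx.F arrays, and MRPS28 lies under it in 3 of the 5 KY1005.Siro.D28 arrays.

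Members with known roles elsewhere on the ribosome rose too. MRPL28 rose by 0.88 ± 0.11, and its NoRx.F values of 8.70, 8.76, 8.89 and 9.13 all exceeded the healthy maximum of 8.36. MRPL44, which resembles an RNA-cleaving enzyme, rose by 0.81 ± 0.23, with R.51 at 8.01 inside the healthy range of 7.01 to 8.64. MRPL11, at the base of the stalk, rose by 0.48 ± 0.11. In the small subunit MRPS34 rose by 0.65 ± 0.12, MRPS7 by 0.53 ± 0.12, MRPS2 by 0.41 ± 0.09 and MRPS27, an RNA-binding protein, by 0.40 ± 0.11.

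A total of 17 genes did not pass the threshold in NoRx.F. MRPS30, a protein that sits in the large subunit despite its name, differed by 0.25 ± 0.14 (limma adjusted p = 0.21). It was 10.52 in R.50 and 10.24 in R.52 but 9.55 in R.51 and 9.63 in R.53, on both sides of the healthy median of 9.69. MRPS18A, which also sits in the large subunit, rose by 0.71 ± 0.15, and its relatives MRPS18B and MRPS18C rose by 0.47 ± 0.15 and 1.05 ± 0.17.

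MRPL58, which frees peptides from stalled ribosomes, differed by -0.04 ± 0.26. MRPS22 differed by -0.09 ± 0.13, MRPS33 by 0.0033 ± 0.14 and MRPL43 by -0.02 ± 0.12. MRPL49 had the lowest difference, -0.51 ± 0.29 (limma adjusted p = 0.197). Its arrays were spread widely, from 4.49 in R.51 to 6.00 in R.53, inside the healthy range of 4.33 to 6.81.

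Other probe sets of the same gene did not always move alike. For 8 of the 21 genes with several tested probe sets, all of them were called in the same direction in NoRx.F. The probe set used for MRPL39 rose by 0.90, while its other probe set fell by 1.55, so the direction of MRPL39 is uncertain here. The probe set used for MRPS25 was not called (0.37 ± 0.17), and another of its 4 probe sets fell by 0.80.

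The 4 NoRx.F arrays also differed in markers of division. The mean over 10 proliferation genes, such as TYMS and TOP2A, was 8.56 in R.51, 8.83 in R.53, 9.91 in R.52 and 10.01 in R.50, against 5.78 to 7.33 in healthy arrays. All 10 genes rose, with a median difference of 2.86. Within NoRx.F, arrays with the higher proliferation mean also had the higher mean over the 61 genes. Other groups did not all show this order. In Siro.F R.18 had the highest proliferation mean, but its mean over the 61 genes (9.11) lay under that of R.13 (9.26). Proliferation means were 7.42 to 8.44 in Auto.D36, where 4 of the 61 genes rose. They were 8.03 and 8.27 in KY1005.D14, where 0 were called, and 6.83 to 8.34 in Tac.Mtx.F, where 22 rose. The part of dividing cells in the rises was not tested. Monocyte genes (mean between 5.67 and 7.63 in NoRx.F, 5.35 to 7.55 in healthy arrays) and granulocyte genes (5.81 to 7.24, against 4.65 to 6.19) were read from the same arrays. With their mean as a covariate 43 members were called. The plasma cell genes MZB1 and XBP1 rose by 1.25 and 0.58 in NoRx.F, and the B cell gene CD79B by 0.97. No other tested gene of either list was called there. The part of these cells was not tested.

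Genes that act with the mitochondrial ribosome did not all follow it. Over all genes tested 19% rose and 15.3% fell in NoRx.F, which is the background of the lists below. Of 4 further ribosomal proteins with names of another kind, 3 rose in NoRx.F: CHCHD1 by 1.30 ± 0.17, AURKAIP1 by 0.69 ± 0.14 and GADD45GIP1 by 0.56 ± 0.12. Of 19 assembly factors 2 rose (10.5%) and 2 fell (10.5%), both shares below those over all genes, with a median of -0.0002. NGRN fell by 0.92 ± 0.16 and MTERF4 by 0.79 ± 0.17, while MTERF3 rose by 0.51 ± 0.14. These proteins help to mature the ribosomal RNAs or join the subunits.

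Of 13 translation factors 4 rose and 2 fell, the falls (15.4%) at about the share over all genes. TSFM, the exchange factor of the elongation factor TUFM, rose by 1.29 ± 0.18, TACO1, which activates translation of a cytochrome oxidase subunit, by 0.74 ± 0.11, and TUFM itself by 0.57 ± 0.11. The initiation factor MTIF3 fell by 0.44 ± 0.14. Of 14 mitochondrial tRNA synthetases 5 rose and 2 fell: YARS2 rose by 0.76 ± 0.16 and SARS2 by 0.65 ± 0.13, while RARS2 fell by 0.63 ± 0.13. Among 11 regulators of mitochondrial biogenesis 0 rose and 3 fell, MYC by 1.41 ± 0.32, TWNK, the mitochondrial DNA helicase, by 0.48 ± 0.15 and POLG, its DNA polymerase, by 0.31 ± 0.12.

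The respiratory chain, for which the mitochondrial ribosome makes core subunits, had 41 of 57 nuclear genes up and 2 down, with a median of 0.59. Cytosolic ribosomal proteins had 1 of 33 up and 20 down, with a median of -0.18. Whether the lists differ from each other was not tested.

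**Figure D3:**
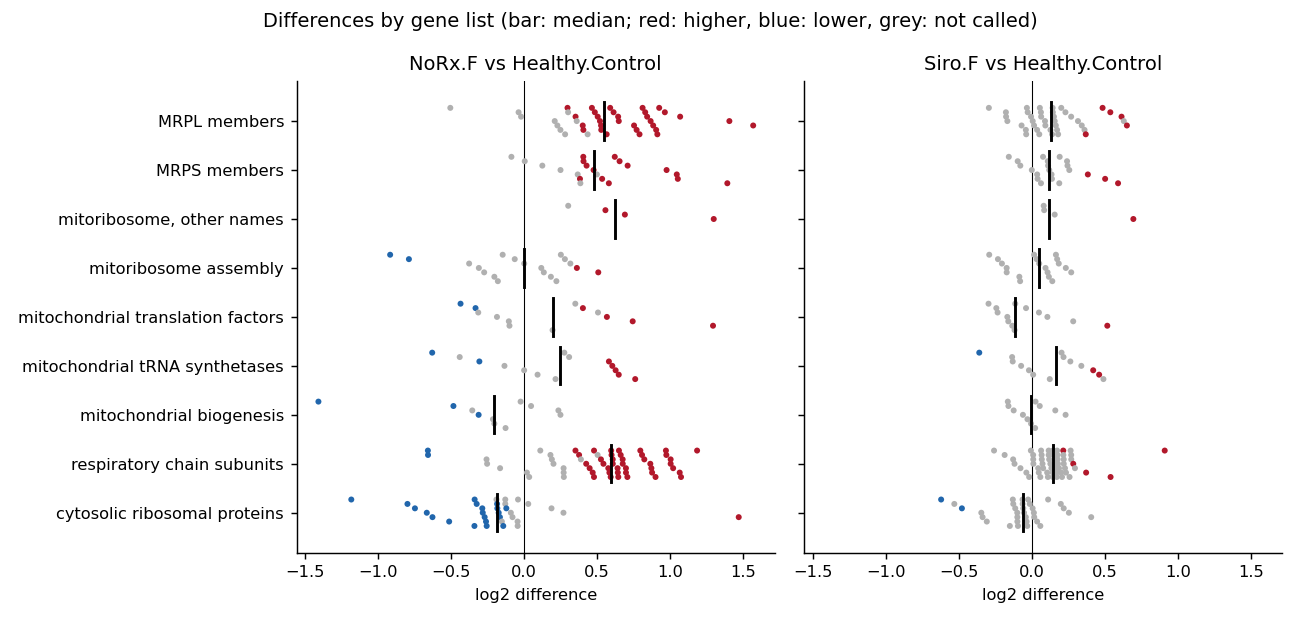
Log2 difference from healthy controls (x axis) of each gene, by list (y axis), in NoRx.F (left) and Siro.F (right). Red points rose, blue points fell and grey points were not called, and black bars are medians. In NoRx.F the medians are 0.55 for MRPL genes, 0.47 for MRPS genes, 0.59 for the respiratory chain and -0.18 for cytosolic ribosomal proteins.

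With sirolimus, 8 of the 61 genes rose against healthy animals and 0 fell, beside 4.24% of all probe sets and 6.03% of all genes that rose. The median difference was 0.13, beside 0.02 over all genes. MRPL57, a small protein of the large subunit, rose most: it was 9.50 in R.16, 10.11 in R.17, 10.18 in R.18 and 10.29 in R.13, with a healthy maximum of 9.80. R.16 alone lay inside the healthy range, and the difference was 0.65 ± 0.14 (limma adjusted p = 0.000974). Over the alternatives other than leaving out an array, the difference of MRPL57 ran from 0.315 to 0.703 and stayed called. That of MRPL12 ran from 0.588 to 0.665, so the rank of MRPL57 depended on the alternative.

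MRPL12 was 8.43 in R.17, 8.77 in R.16, 8.97 in R.18 and 9.20 in R.13, of which R.17 lay under the healthy maximum of 8.59. It rose by 0.61 ± 0.12, MRPS28 by 0.59 ± 0.14 and MRPL41 by 0.54 ± 0.12. The count fell to 3 without R.13 and to 5 without R.18. These 2 animals had healthy arrays in the same batch, and 57 of 61 genes in R.13 and 46 in R.18 were higher after transplant than before. In R.16, whose healthy array lay in another batch, 21 were higher. All 10 proliferation genes rose in Siro.F as well, with a median difference of 1.47. The mean over the 4 T cell genes was 9.99, 10.23, 10.24 and 10.25, and 3 of these arrays lay under every healthy array. No single gene of the 4 was called in Siro.F. The plasma cell gene MZB1 rose by 1.05 and XBP1 by 0.42 (2 of 5 genes of that list). Of 7 B cell genes 1 rose, CD79B, by 0.73. The plasma cell mean was highest in R.18, at 7.66, against a healthy maximum of 7.23. The part of these cells was not tested.

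Set directly against NoRx.F, 23 genes were lower in Siro.F and 0 were higher, where 3.38% of all probe sets and 5.16% of all genes were lower. The median difference was -0.42, beside -0.03 over all genes. MRPS18C was 8.59, 8.86, 9.29 and 9.39 in Siro.F and 9.60, 9.75, 10.20 and 10.60 in NoRx.F. The groups did not overlap, and it was lower by 0.99 (-0.99 ± 0.20, limma adjusted p = 0.00057). MRPL42 (-0.94 ± 0.31), MRPS14 (-0.89 ± 0.21) and MRPL12 (-0.79 ± 0.15) followed, and in 11 of the 23 genes the groups did not overlap, beside 1.9% of all probe sets that were both lower and wholly below.

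The call of a gene in this comparison depended on the arrays. Leaving out R.50, R.52, R.17 or R.16 in turn left 11, 13, 11 and 9 genes. Fitted on these 2 groups alone (n = 4 each), 0 were called by limma, whereas 10 were called with the arrays of batches 1 and 2. In the fit on all groups 39 had an unadjusted p under 0.05, all lower in Siro.F, where 10.2% of all probe sets were lower at that threshold. Days after transplant differ too, 6 to 12 in NoRx.F and 12 to 24 in Siro.F, and day and treatment cannot be told apart.

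With KY1005 alone, 0 of the 61 genes were called by limma against healthy animals in KY1005.D14 (either direction, 0.202% of all probe sets) and 0 in KY1005.F (3.28% of all probe sets). At an unadjusted p under 0.05, 10 were higher in KY1005.D14, where 6.69% of all probe sets were. In that group 6 genes lay wholly above the healthy arrays, as did 2.12% of all probe sets. In KY1005.F 6 were higher and 1 lower at an unadjusted p under 0.05, beside 11.1% and 10.3% of all probe sets. Medians of the 61 genes were 0.13 and 0.06, beside -0.02 and -0.05 over all genes. In KY1005.F MRPL42 was 8.37, 8.44 and 8.45, all above the healthy maximum of 8.25, with a difference of 0.90 and a limma adjusted p of 0.0674. MRPL12, at 8.65, 8.70 and 8.90, also lay wholly above the healthy arrays, with a difference of 0.45 and a limma adjusted p of 0.0577. In R.206, which had a healthy array in another batch, 55 of 61 genes were higher after transplant.

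Against NoRx.F, 27 genes were lower in KY1005.F and 0 higher, where 4.07% of all probe sets and 6.53% of all genes were lower. The median difference was -0.50, beside -0.11 over all genes. In 25 of the 27 the groups did not overlap, beside 3.43% of all probe sets that were both called and wholly below. Of the 34 genes not called 8 also lay wholly below NoRx.F, beside 8.05% of all probe sets that did so without a call. MRPL19 was 7.42, 7.95 and 7.96 in KY1005.F and 8.31, 8.31, 9.03 and 9.24 in NoRx.F, a difference of -1.11 ± 0.33 (limma adjusted p = 0.0246). MRPS14 was 8.93, 9.04 and 9.17 in KY1005.F, below every NoRx.F array, with a difference of -1.03 ± 0.27. MRPL41 (-1.01 ± 0.20) and MRPL52 (-1.0 ± 0.25) were also 2-fold lower.

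Leaving out R.211, R.212 or R.50 left 17, 13 and 13 genes, and 16 were called on the 2 groups alone and 16 without the arrays of high actin ratio. KY1005.F and NoRx.F share no batch and no day, so the difference rests on the healthy arrays of each batch. In KY1005.F the array of R.211 had a proliferation mean of 9.09, inside the NoRx.F range, with a mean over the 61 genes of 8.93. The other two arrays had proliferation means of 7.00 and 7.55. R.211 also had the highest monocyte mean (8.37) and granulocyte mean (8.17) of its group and the lowest T cell mean (10.30). The granulocyte mean of all 3 arrays, at 6.37, 6.98 and 8.17, lay above the healthy maximum of 6.19, and 3 of 9 granulocyte genes rose in KY1005.F. The part of these cells was not tested.

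Tacrolimus with methotrexate was followed by 1 rise at day 14, beside 0.763% of all probe sets, and 22 rises in Tac.Mtx.F, beside 6.9%, with 0 falls at both times. Over all genes 1.06% rose at day 14 and 10.1% in Tac.Mtx.F. Medians were 0.26 and 0.30, beside 0.02 and 0.05 over all genes. In Tac.Mtx.F 58 of 61 differences were positive. The gene at day 14 was MRPS28, at 8.95, 9.20 and 9.21 (0.63 ± 0.16). In Tac.Mtx.F MRPL12 was 8.71 in R.19, 8.91 in R.21 and 8.99 in R.20, all above the healthy maximum of 8.59. Its difference was 0.67 ± 0.13 (limma adjusted p = 0.000547).

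MRPL42 (0.82 ± 0.28), MRPL52 (0.68 ± 0.18) and MRPS28 (0.67 ± 0.16) were the other large rises of Tac.Mtx.F. In 4 of the 22 genes the groups did not overlap, beside 1.4% of all probe sets that both rose and did not overlap. The count was 13 with the monocyte and granulocyte mean as a covariate and 12 after a further quantile normalization. It fell to 3 without R.21 and to 5 without R.20, and at day 14 it was 0 without either of them and 2 without R.19. R.19 had the lowest mean over the 61 genes at both times, 8.98 and 9.02. Its proliferation mean was 6.40 and 6.83, inside the healthy range, whereas those of R.20 and R.21 ran from 7.98 to 8.55.

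Belatacept with sirolimus was followed by 6 rises in Bela.Siro.D14 (1.64% of all probe sets rose), 0 calls in Bela.Siro.D30 (1.14% in either direction) and 19 rises in Bela.Siro.F (5.23%). No gene fell. Over all genes 2.32% rose in Bela.Siro.D14, 0.879% in Bela.Siro.D30 and 7.85% in Bela.Siro.F. Medians were 0.26, 0.26 and 0.24, beside 0.08, 0.04 and 0.04 over all genes. In Bela.Siro.D30, with n = 2, limma gave an unadjusted p under 0.05 for 20 genes, all higher, where 5.81% of all probe sets were higher, and 1 gene was called without R.38. In Bela.Siro.F MRPL57 ran from 9.77 to 10.19 with a median of 10, and 6 of 7 arrays exceeded the healthy maximum of 9.80 (0.65 ± 0.12, limma adjusted p = 5.75e-05). Its difference ran from 0.452 to 0.672 over the alternatives and stayed called.

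MRPL12 ran from 8.59 over 8.67 to 8.96 in Bela.Siro.F, all 7 arrays above the healthy median (0.51 ± 0.10). MRPL42 (0.75 ± 0.20) and MRPL52 (0.65 ± 0.13) rose as well. At day 14 the largest rises were MRPL1 (0.53 ± 0.12), MRPL40, MRPS12 and MRPL12, which was 8.63, 8.70 and 8.78 and above every healthy array (0.50 ± 0.13). The day 14 count was 2, 0 and 3 without R.38, R.42 and R.49 in turn. Monocyte genes had a mean of up to 8.58 in Bela.Siro.F, and with the monocyte and granulocyte mean as a covariate 6 genes were called there and 1 at day 14. In the 1 Bela.Siro.F animal with a healthy array, R.49, 50 of 61 genes were higher after transplant.

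KY1005 with sirolimus showed few calls. In KY1005.Siro.D14 MRPL20 rose, with 1.57% of all probe sets. It was 10.38 to 10.79 in the 5 arrays, all above the healthy median of 10.20, and the difference was 0.34 ± 0.10 (limma adjusted p = 0.0347). It was not called without R.217, R.218 or R.220. In KY1005.Siro.D28 1 gene rose (6.94% of all probe sets) and 3 fell (5.16%), with a median of -0.02, beside -0.06 over all genes. Over all genes 4.25% rose and 7.02% fell in that group. Neither count was a larger share of the members than of all genes or all probe sets. In KY1005.Siro.F limma called 0 (6.84% in either direction), with a median of -0.07, beside -0.09 over all genes. There 1 was higher and 9 were lower at an unadjusted p under 0.05, beside 11.7% and 12.1% of all probe sets.

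MRPS7, which binds the head of the small subunit RNA, was the rise of KY1005.Siro.D28: 7.86, 8.16, 8.21, 8.26 and 8.29, against a healthy median of 7.85 (0.34 ± 0.12). MRPS28 fell by 0.58 ± 0.15: it was 7.79, 7.87, 8.05, 8.44 and 8.55, of which 3 arrays lay under the healthy minimum of 8.11. MRPS18C fell by 0.54 ± 0.16 and MRPL10, which anchors MRPL12 on the ribosome, by 0.47 ± 0.14. All 5 arrays lay under the healthy median for MRPS18C and MRPL10. The count of 4 fell to 1 without R.221 and to 1 within the single batch of this group. It was 0 once the 6 arrays with an actin ratio over 2.5 were dropped. Among them R.207 (3.30) and R.208 (3.95) are healthy arrays of the same batch. The part of RNA quality in these calls was not tested.

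From day 14 to day 28 in this group limma called 0 genes (0.00946% of all probe sets), and from day 28 to KY1005.Siro.F also 0 (1.84%). At an unadjusted p under 0.05, 3 were higher and 4 lower at day 28 (5.68% and 3.77% of all probe sets), and 2 were higher and 3 lower later (6.13% and 4.35%). Animals went different ways: between days 14 and 28, 55 of 61 genes were lower in R.220 and 13 in R.219. The array of R.219 in KY1005.Siro.F had the highest monocyte mean, 10.06, and granulocyte mean, 9.63, and a mean over the 61 genes of 8.67, the lowest of its group. R.220 and R.221 also exceeded every healthy array, with monocyte means of 8.34 and 8.32 and granulocyte means of 7.61 and 7.89, whereas R.217 did not. The erythroid genes ALAS2 and SLC25A37 rose in this group, by 1.97 and 2.49, and no other tested gene of that list was called. The part of these cells was not tested there. Without R.217, whose mean over the 61 genes was 9.03, 4 of the 61 genes were called in KY1005.Siro.F. The share of all probe sets was not taken for that fit. With R.217 it was 6.84% in either direction.

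Autologous recipients had 30 rises (8.41% of all probe sets rose) and 4 falls (11% fell) at day 14. The median was 0.39, beside 0.10 over all genes. Over all genes 13.7% rose and 7.82% fell there, so the falls were no larger a share of the members. At day 36 there were 4 rises (5.13%), with a median of 0.12, beside -0.007 over all genes. These rises were a share of the members close to the 5.76% over all genes. At day 100 limma called 0 genes (2.48% in either direction), with a median of 0.09, beside 0.03 over all genes. At day 100, 5 genes were higher and 1 lower at an unadjusted p under 0.05, beside 8.9% and 7.27% of all probe sets.

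The rises of Auto.D14 came mainly from 2 of its 3 arrays. MRPL42 was 8.86 in R.201, 8.09 in R.202 and 7.94 in R.200, and only R.201 exceeded the healthy maximum of 8.25. MRPS14 was 9.66, 9.60 and 9.01 and MRPL52 9.41, 9.29 and 8.46 in the same order, with R.200 inside the healthy range for both. Differences were 1.17 ± 0.32, 1.01 ± 0.22 and 0.96 ± 0.20, and MRPS18C rose by 0.85 ± 0.21. MRPS12, at 10.11, 10.23 and 10.10, was the only called gene without overlap, beside 0.706% of all probe sets that both rose and did not overlap.

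In 3 of the 4 falls R.201 and R.202 were also the lower arrays. MRPS5 was 7.36 in R.201, 7.34 in R.202 and 8.14 in R.200, against a healthy median of 8.26, and fell by 0.79 ± 0.27. MRPL38, at 7.53, 7.17 and 8.25, fell by 0.85 ± 0.30, and MRPS31, at 7.57, 7.42 and 8.45, by 0.78 ± 0.28. MRPL49 fell by 1.08 (-1.08 ± 0.36), at 4.54, 5.04 and 4.99, with R.200 slightly under R.202.

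The actin ratio was 3.30 in R.201 and 3.38 in R.202 but 0.44 in R.200. In R.201 and R.202 all 30 risen genes were above the healthy median and all 4 fallen genes below it. These genes were called from the Auto.D14 arrays, so their directions in these arrays were largely set by that choice. In R.200, with its low ratio, 27 of the 30 were above and 3 of the 4 below. In the healthy array with the highest ratio, R.208 at 3.95, 28 of the 30 were above the healthy median and 4 of the 4 below. R.208 also held the highest healthy value of 21 of the 61 genes and the lowest of 10. Of the other healthy arrays with a ratio over 2.5, R.22 (3.69) had 21 of the 30 above the median, R.207 (3.30) 27 and R.32 (2.94) 9. Of the 4 fallen genes 4, 3 and 2 were below it in the same order. The part of RNA quality was not tested. Leaving out the 6 arrays with a ratio over 2.5 removed all 34 calls, with 1 Auto.D14 array left and a median of 0.17. Leaving out R.201 or R.202 alone left 9 and 7.

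**Figure D4:**
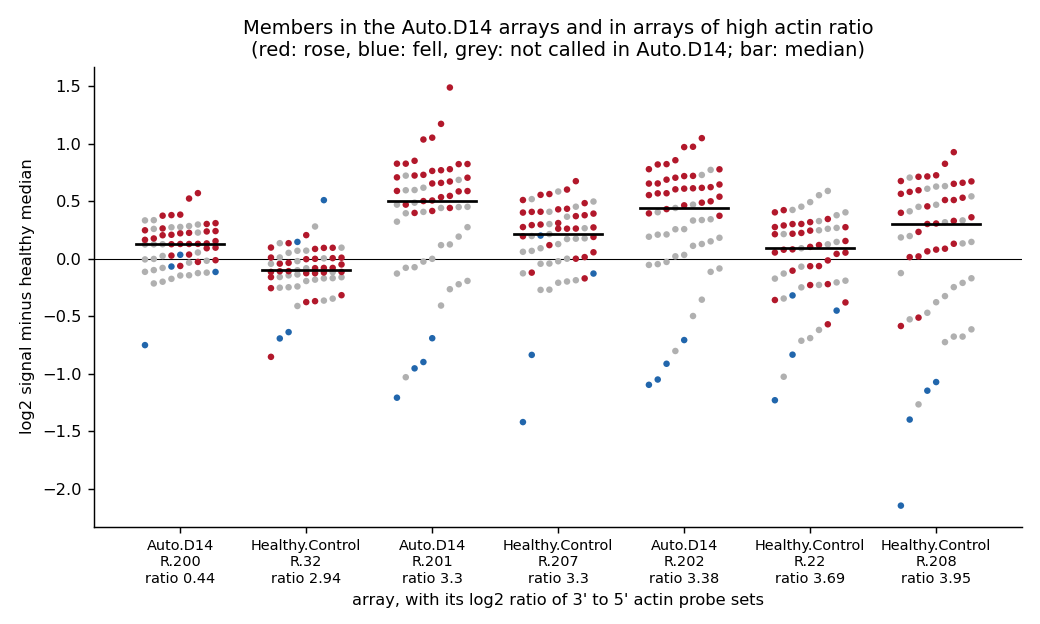
Log2 signal of each of the 61 genes minus its healthy median (y axis) in the 3 Auto.D14 arrays and in the 4 healthy arrays with an actin ratio over 2.5, ordered by that ratio (x axis). Red points rose, blue points fell and grey points were not called in Auto.D14, and black bars are medians. The medians are 0.50 in R.201, 0.44 in R.202, 0.13 in R.200 and 0.30 in the healthy array of R.208.

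At day 36 MRPL44 rose by 0.70 ± 0.22, at 8.13, 8.43, 8.58 and 8.63, all above the healthy median of 7.76. MRPS28 (0.43 ± 0.15), MRPL28 (0.41 ± 0.11) and MRPL12 (0.39 ± 0.12) were the other rises. Their groups overlapped with the healthy arrays, and the count was 1, 1 and 2 without R.200, R.201 and R.202. Each Auto.D36 animal was also measured while healthy, in the same batch. After transplant 54 of 61 genes were higher in R.62, 39 in R.201, 38 in R.200 and 28 in R.202. MRPL12 went from 8.52 to 8.43 in R.202 but was higher after transplant in R.62, R.200 and R.201. R.62 had a monocyte mean of 9.002, above the healthy maximum of 7.547. The part of these cells was not tested.

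From day 14 to day 100, 16 genes fell and 0 rose, where 1.78% of all probe sets and 3.01% of all genes fell. The median difference was -0.31, beside -0.08 over all genes. MRPL52 was 7.96, 7.98, 8.11 and 8.61 at day 100, and it fell by 0.93 ± 0.21 (limma adjusted p = 0.00619). MRPS14 fell by 0.82 ± 0.23, MRPL51 by 0.74 ± 0.20 and MRPL30 by 0.71 ± 0.21, and these 3 did not overlap between the days. With the animal as a replicate block 25 genes fell. By contrast 0 were called on the 2 groups alone, 0 within their batches, 0 without the arrays of high actin ratio (median -0.0985) and 6 with the monocyte and granulocyte mean as a covariate.

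Within animals the 3 pairs differed in size. In R.201 47 and in R.202 48 of 61 genes were lower at day 100, with medians of -0.48 in both, and in R.200 40 were lower, with a median of -0.08. No gene was called without the day 14 array of R.201, or without that of R.202, and 31 were called without that of R.200. Leaving out the day 100 array of R.200, R.202 or R.201 left 9, 7 and 6.

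**Figure D5:**
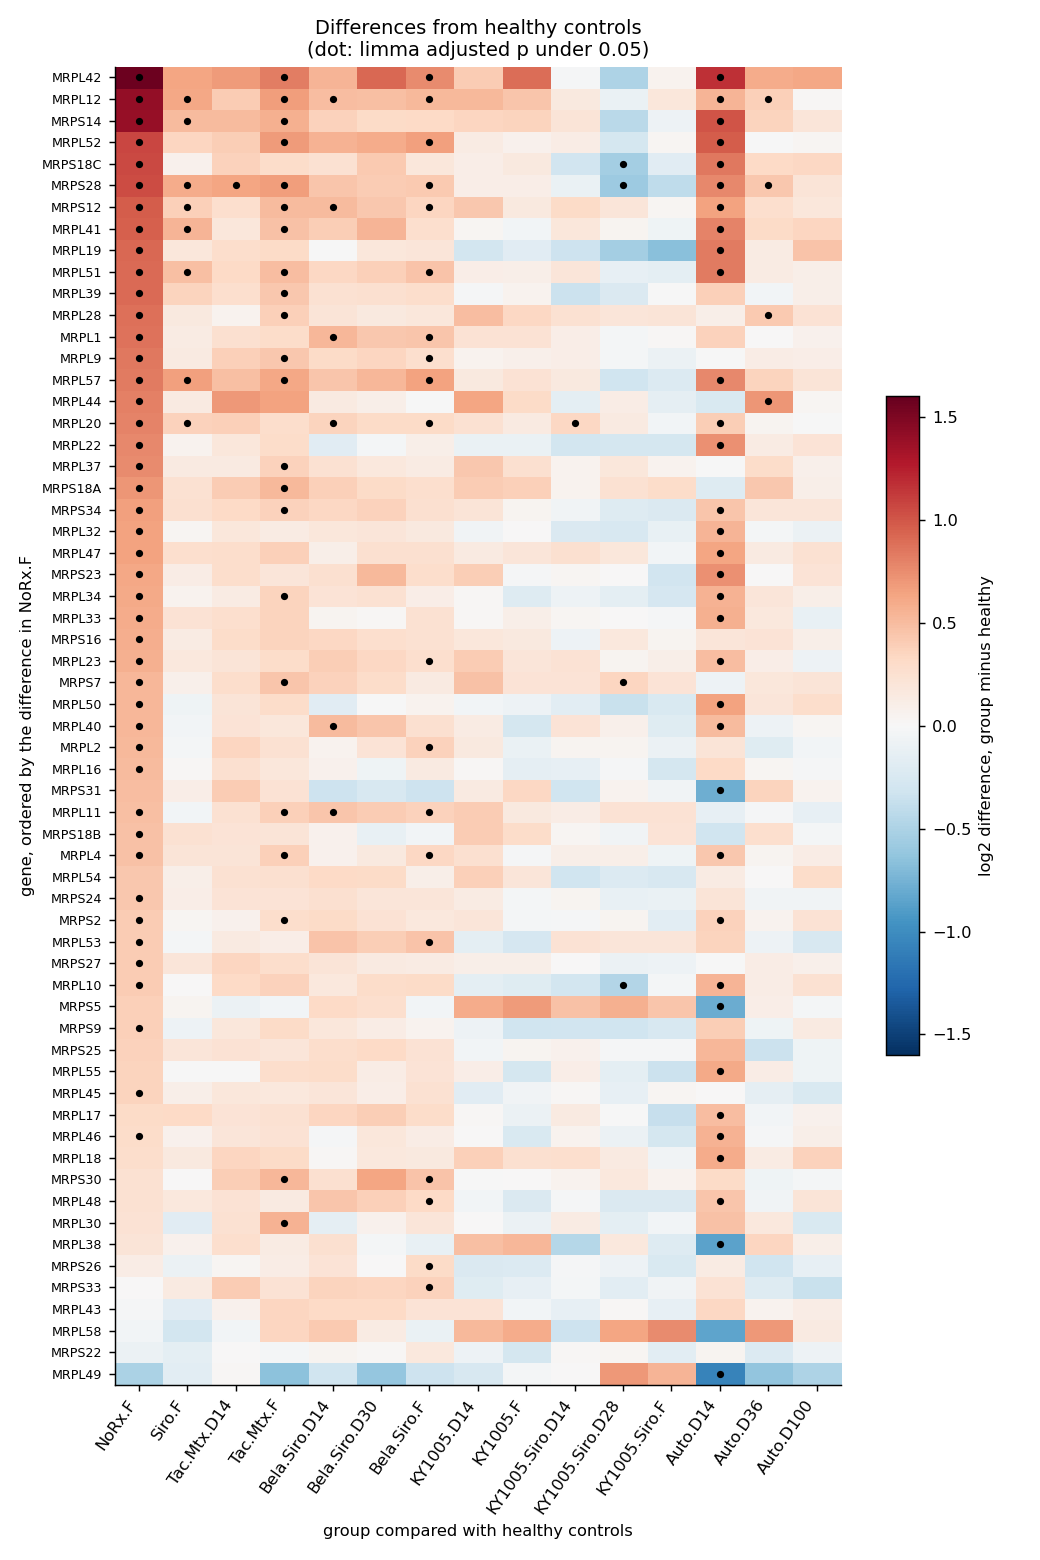
Log2 difference from healthy controls (colour) of the 61 genes (y axis, ordered by the difference in NoRx.F) in the 15 groups after transplant (x axis). Black dots mark genes with a limma adjusted p under 0.05. The NoRx.F column holds 44 dots, Auto.D14 34, Tac.Mtx.F 22 and Bela.Siro.F 19, and KY1005.D14, KY1005.F, KY1005.Siro.F, Bela.Siro.D30 and Auto.D100 hold 0.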

How the data were processed

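The deposited value table holds log2 values of 52865 probe sets in 102 arrays, made by the authors with RMA and affy per the submitters' processing notes (versions not given in the sources used here). Batch had an F-test p under 0.05 in 0.274% of probe sets over healthy arrays and above 0.95 in 24.9%, so the values may have been adjusted for batch before deposition. Genes come from the platform annotation. The 2 healthy arrays of R.201 were averaged (101 arrays). Control probe sets (99) were left out, and limma 3.58.1 in R 4.3.3, with data.table (1.17.8), fitted the 31711 that passed the filter with group and batch, with Benjamini-Hochberg adjustment at 0.05. The fit was tested on simulated data. Members, lists, comparisons and alternatives were chosen with earlier results of these data known. Named genes are the 8 largest rises and falls in NoRx.F, 4 elsewhere, members of fixed roles, and up to 3 genes per list. Residuals of the 51 array pairs that share an animal correlated with a median of 0.184 (30 pairs above 0.1), and the animal was a random block in an alternative (consensus correlation 0.11). The number of arrays limits the precision.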

Additional observations from a re-analysis of the deposited data

Results flagged for a closer look

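In groups of 4 to 10 arrays, 5 of 136 sets of values held an array set apart from the rest of its group, where chance alone flags about 1 in 20. MRPS12 was 9.54 in R.68 of Bela.Siro.F, with the nearest of the other 6 arrays at 9.86. MRPS7 was 7.66 in R.62 of Auto.D36 (nearest array 8.13) and 7.86 in R.220 of KY1005.Siro.D28 (nearest 8.16). MRPS22 was 9.95 in R.202 of Auto.D36, above the other arrays at 9.82 to 9.84. MRPL58 was 7.02 in R.221 of KY1005.Siro.D14, with the nearest array at 8.64, and that array had the highest actin ratio of its group, 2.00.

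In 3 direct comparisons between groups after transplant, members differed: 23 were lower in Siro.F than in NoRx.F, 27 were lower in KY1005.F than in NoRx.F, and 16 were lower in Auto.D100 than in Auto.D14.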

How the results depend on the processing

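The count of 44 rises in NoRx.F ran from 37 to 49 over its 15 alternatives, and its median difference from 0.454 to 0.648. Other counts moved more, and the cause was not tested. With the animal as a random replicate block, 25 members were called between Auto.D14 and Auto.D100, and it changed no other count by over 1.5 times and no named call. With a further quantile normalization 2 were called in Auto.D36, 5 in KY1005.Siro.F and 12 in Tac.Mtx.F, with medians of -0.418 for Auto.D100 against Auto.D14, 0.0703 for KY1005.D14 and -0.633 for KY1005.F against NoRx.F. Averaging a gene's probe sets gave 2 in KY1005.Siro.D14, and no filter on low values gave 0 there. With the monocyte and granulocyte mean as a covariate, 6 were called for Auto.D100 against Auto.D14, 1 in Auto.D36, 1 in Bela.Siro.D14, 6 in Bela.Siro.F, 0 in KY1005.Siro.D14, 0 in Tac.Mtx.D14 and 13 in Tac.Mtx.F. Without a batch term 9 were called in Auto.D36, 1 in Bela.Siro.D30, 2 in KY1005.D14 (median 0.207), 2 in KY1005.F, 2 in KY1005.Siro.D14, 1 in KY1005.Siro.F and 2 in Tac.Mtx.D14.

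Within the batches that hold the groups, 0 were called for Auto.D100 against Auto.D14, 1 in Bela.Siro.D30, 0 in KY1005.Siro.D14, 1 in KY1005.Siro.D28, 5 in Siro.F and 10 for Siro.F against NoRx.F. KY1005.F and NoRx.F share no batch, so this gave no value. Fitted on the groups compared alone, 0 were called for Auto.D100 against Auto.D14, 7 in Auto.D36, 2 in Bela.Siro.D30, 1 in KY1005.F, 16 for KY1005.F against NoRx.F, 0 for Siro.F against NoRx.F and 4 in Tac.Mtx.D14. Without the 6 arrays of high actin ratio, 0 were called for Auto.D100 against Auto.D14 (median -0.0985), 0 in Auto.D14 (median 0.165), 1 in Bela.Siro.D30, 16 for KY1005.F against NoRx.F, 0 in KY1005.Siro.D28 and 2 in Tac.Mtx.D14, and the median of KY1005.D14 was 0.215.

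Leaving out each array in turn gave 0 to 31 calls for Auto.D100 against Auto.D14 (median -0.452 to -0.255), 7 to 43 in Auto.D14, 1 to 5 in Auto.D36, 0 to 3 in Bela.Siro.D14, 0 to 1 in Bela.Siro.D30 (median 0.129 to 0.467), 13 to 30 for KY1005.F against NoRx.F, 0 to 1 in KY1005.Siro.D14, 1 to 5 in KY1005.Siro.D28, 0 to 4 in KY1005.Siro.F, 3 to 10 in Siro.F, 9 to 29 for Siro.F against NoRx.F, 0 to 2 in Tac.Mtx.D14 and 3 to 16 in Tac.Mtx.F. The median of KY1005.D14 ran from 0.0573 to 0.19. Where 1 array was left, it was assumed to vary like the other groups. Over the 54 named differences and their alternatives 682 calls were kept, 136 were lost and 0 reversed.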
